A study of Macaca mulatta with 22 samples.

Results

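GRIA1, GRIK5, GRIN1 and GRM2 encode 4 glutamate receptor subunits, 1 from each of the AMPA, kainate, NMDA and metabotropic classes. They were followed through all 11 peak lists of an m6A-seq study of infant rhesus macaque (Macaca mulatta) prefrontal cortex, by the Ensembl gene in which each peak was called. The genes were chosen by name with the presence of their peaks in each group already known, so presence and every other measure of the same comparison is given here as a description, with no test. All 4 genes had at least 1 peak, and together they held 9 of the 10069 peaks and 4 of the 3671 genes in the lists.

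In m6A-seq, an antibody pulls down RNA fragments that carry N6-methyladenosine (m6A), and stretches enriched among them are called as peaks. The sevoflurane group held 5 animals, the males D and S1 and the females F, S2 and S3. On about postnatal days 7, 21 and 35 they breathed the anaesthetic for 4 h at about 2.5 to 3%. The control group held 6 animals, the males A and B and the females C, C1, C2 and C3, and what the controls received on those days is not given in the sources used here. All animals were at postnatal day 35, no strain or allele is given, and each list belongs to 1 animal. The labels name separate animals, so the spread between lists includes the spread between animals.

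Glutamate is the main excitatory transmitter of the cortex. AMPA, kainate and NMDA receptors are channels that glutamate opens: AMPA receptors carry most fast transmission, NMDA receptors admit calcium and are needed for many forms of synaptic plasticity, and kainate receptors tune excitability and release. Metabotropic receptors act through G proteins. In mRNA, m6A bears on splicing, stability and translation, and is often found near stop codons and in 3′ UTRs.

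The lists differed in length, which bears on every count below. Sevoflurane lists held 852 to 1673 peaks and control lists 452 to 1210, a difference of 0.93 in mean log2 number of peaks (two-sided exact permutation test over all splits of the 11 animals, p = 0.0152). The control animal C3 had 1210 peaks and the other controls at most 703. The tables hold no read counts, so the depth is unknown, and RNA levels were not analysed here, so a peak that is present or missing cannot be told apart from more or less of the transcript. Of 28 marker genes of cortical cell types, 7 had a peak in any animal. Among them CAMK2A, of excitatory neurons, was in 2 sevoflurane and 2 control animals, and SLC32A1, of inhibitory neurons, in 2 and 3. PDGFRA, of oligodendrocyte precursors, was in 3 sevoflurane and 0 control animals. DLX1, of inhibitory neurons, and MBP, of oligodendrocytes, were each in 1 sevoflurane and 0 control animals. SLC1A3, of astrocytes, and CX3CR1, of microglia, were each in 0 sevoflurane animals and 1 control. None of the 4 endothelial markers had a peak. In bulk cortex fewer cells of a type and less RNA per cell cannot be told apart, and the part of cell types in the results was not tested.

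Receptor peaks were sparse and differed in which animals carried them. Of the 5 sevoflurane animals, D had a peak in GRIK5, F in GRIK5 and GRM2, S1 in GRIN1, S2 in GRM2, and S3 in none of the 4 genes. Of the 6 control animals, C2 had a peak in GRIA1 and C3 in GRIA1 and GRM2, while A, B, C and C1 had none. Thus 4 of 5 sevoflurane and 2 of 6 control animals carried at least 1 of the genes, and the controls that did were those with the longest control lists. GRIK5 and GRIN1 peaks lay in sevoflurane animals, GRIA1 peaks in controls, and GRM2 peaks in both groups.

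**Figure D1:**
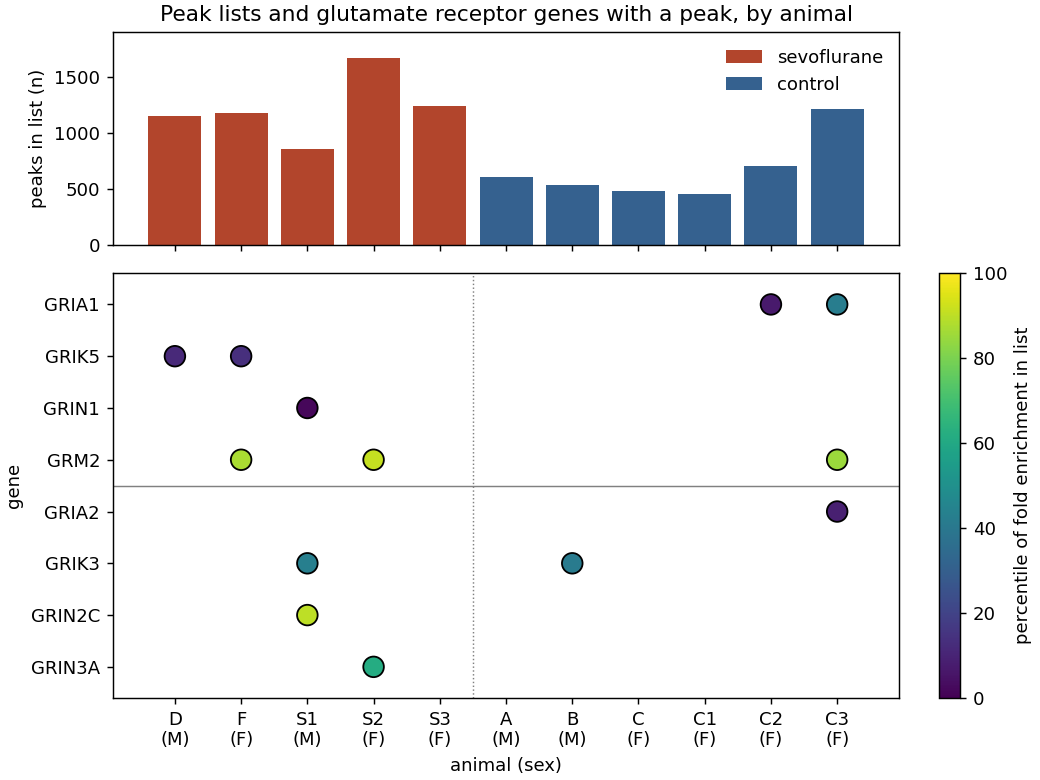
Number of peaks in each animal's list (top, bars from 0) and glutamate receptor genes with a peak (bottom, 1 point per gene and animal, coloured by the percentile of its highest fold enrichment within the list). The 4 chosen genes are above the line and the other receptor genes with a peak below it. GRM2 points are bright (percentiles of 85.1 to 91.0), and 4 of the 6 control columns hold none of the 4 chosen genes.

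Counted over peaks, the sevoflurane lists held 5 receptor peaks among 6085 and the control lists 4 among 3984. That is 0.822 per 1000 peaks after sevoflurane and about 1 per 1000 in controls. The control value rested on C3, which held 3 of the 4 peaks. Without C3 the controls had 1 in 2774, or 0.360 per 1000, so the order of the groups turned on 1 animal. In the sevoflurane lists F held 2 of the 5 peaks, and the rate without F was not computed.

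The same counts were read against the whole table. Of all 3671 genes, 55.9% had a peak in 1 animal, like GRIN1, 17.5% in 2, like GRIA1 and GRIK5, and 8.31% in 3, like GRM2. Among the 1486 genes present in 2 to 9 animals, 83.2% had a peak in a larger share of sevoflurane than of control animals. The median difference was 23.3 percentage points. Fisher's exact test gave an unadjusted p under 0.05 for 27 genes with more sevoflurane animals (1.82%) and for 0 with more control animals (0%), and for 0 genes after Benjamini-Hochberg adjustment. That fit held 3 of the 4 genes, and GRIN1 was not among them, because it had a peak in 1 animal. A gene present in 2 animals cannot have a Fisher's exact p below 0.182, nor one present in 3 animals below 0.0606, so none of the 4 could have been called.

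GRIA1 encodes GluA1, an AMPA receptor subunit whose insertion into the synapse is regulated during plasticity. It had a peak in 0 of 5 sevoflurane and 2 of 6 control animals, a difference of -33.3 percentage points. Only 11.2% of the 641 genes present in exactly 2 animals were in 2 controls and 0 sevoflurane animals (72 genes), so this direction was the less common one in the table. The GRIA1 peaks did not share a position. C2 had 1 peak on chromosome 6 from 151855074 to 151879857 (rheMac8, plus strand), made of exonic blocks of 45 and 76 bases with 24663 bases of intron between them. C3 had 1 peak of 121 bases in an exon, from 151733704 to 151733824, and 1 of 91 bases in the 3′ UTR class, from 151896806 to 151896896. These 3 peaks formed 3 regions, each found in a single animal. The 3′ UTR peak is annotated to another transcript of the gene than the other peaks and lay 4102 bases from its 3′ end.

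GRIA1 enrichment was low in C2 and for one of the C3 peaks. The fold enrichment, which is the authors' own value for each peak, was 2.70 in C2, at a percentile of 6.97 within that list. The C3 peaks had 2.38-fold enrichment in the inner exon, at a percentile of 3.60, and 4.53-fold in the 3′ UTR class, at 41.9. Their p-values were 1.1e-06 and 1.3e-06 in C3 and 0.0001 in C2, as the authors' table gives them, which placed them at ranks 547.5 and 569.5 of 1210 and at rank 631 of 703. Both animals are female, so 0 of 3 sevoflurane and 2 of 4 control females had a peak, against 0 of 2 and 0 of 2 males. Without C3 or without C2 the difference was -20 percentage points.

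GRIK5 encodes GluK5, a kainate receptor subunit that binds glutamate with high affinity and forms channels together with other kainate subunits. It had a peak in 2 of 5 sevoflurane and 0 of 6 control animals, a difference of 40.0 percentage points. Of the 641 genes present in exactly 2 animals, 261 (40.7%) were in 2 sevoflurane animals and 0 controls, so this pattern was common in the table. The peak had identical ends in D and F: chromosome 19 from 37798793 to 37801215 (rheMac8, minus strand), with exonic blocks of 111 and 39 bases around 2273 bases of intron. Its midpoint lay 92.4% of the way along the annotated transcript span of 75449 bases, and its edge lay 4504 bases from the 3′ end.

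Identical ends were uncommon. Of 16033 pairs of overlapping peaks called in the same gene in different animals, 1180 (7.36%) had the same ends and blocks. In 82.7% of all peaks the exonic length was a multiple of 30 bases or 1 base more. Peak ends thus mostly fell in steps of 30 bases, and equal ends do not place a site to the base. The enrichment of the GRIK5 peak was 2.75-fold in D and 2.93-fold in F, at percentiles of 11.5 and 13.5 within their lists. The p-value was 5.8e-06 in D, rank 716.5 of 1146, and 2.3e-05 in F, rank 894.5 of 1178. D is male and F female, and both carry single-letter names. Without D or without F the difference was 25 percentage points. Within the single-letter animals GRIK5 had a peak in 2 of 2 sevoflurane and 0 of 3 control animals, and within the numbered animals in 0 of 3 and 0 of 3. The annotation column of the lists names this gene LOC706629, and the symbol GRIK5 comes from the Ensembl names.

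GRIN1 encodes GluN1, the subunit that every NMDA receptor contains. It had a peak in 1 of 5 sevoflurane animals, the male S1, and in 0 of 6 controls. Of the 2053 genes with a peak in a single animal, 63.2% had it in a sevoflurane animal. The peak covered 180 bases of a single exonic block on chromosome 15 from 1110417 to 1110596 (rheMac8, minus strand). It lay 628 bases from the annotated 3′ end, with its midpoint at 97.6% of the transcript span of 29689 bases.

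By p-value the GRIN1 peak was the strongest of the 9, and by enrichment the weakest. Its p-value of 2e-09 stood at rank 156.5 of the 852 peaks in S1, whereas its 2.37-fold enrichment stood at a percentile of 1.70. Of the 838 other peaks in S1 with at least that enrichment, 151 had a smaller p-value. When every list was shortened to 452 peaks by p-value, to match the control C1, GRIN1 in S1 was the single receptor peak left among the 4 genes.

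GRM2 encodes mGlu2, a receptor coupled to inhibitory G proteins that lowers glutamate release when it sits on presynaptic terminals. It had a peak in 2 of 5 sevoflurane animals, F and S2, and in 1 of 6 controls, C3, a difference of 23.3 percentage points that equals the median over the 1486 genes. Of the 305 genes present in exactly 3 animals, 155 (50.8%) had this split of 2 sevoflurane animals and 1 control. All 3 animals are female, so 2 of 3 sevoflurane and 1 of 4 control females had the peak, against 0 of 2 and 0 of 2 males. Without C3, whose list is the longest among controls, 0 of 5 controls had it and the difference was 40.0 percentage points. It was 8.33 points without F and without S2.

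GRM2 was the gene of the 4 with a region shared between groups. On chromosome 2 (rheMac8, minus strand) the peak ran from 90619249 to 90619399 in F (151 bases), from 90619219 to 90619339 in S2 (121 bases) and from 90619309 to 90619399 in C3 (91 bases). All 3 held the 31 bases from 90619309 to 90619339. F and C3 shared the edge nearer the 5′ end, 613 bases from the annotated start, and in S2 that edge lay at 673 bases. The ends of these 3 peaks also differed in steps of 30 bases. The peaks lay in the exon class, with midpoints at 5.72% in F, 6.09% in S2 and 5.47% in C3 of a transcript span of 12031 bases.

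**Figure D2:**
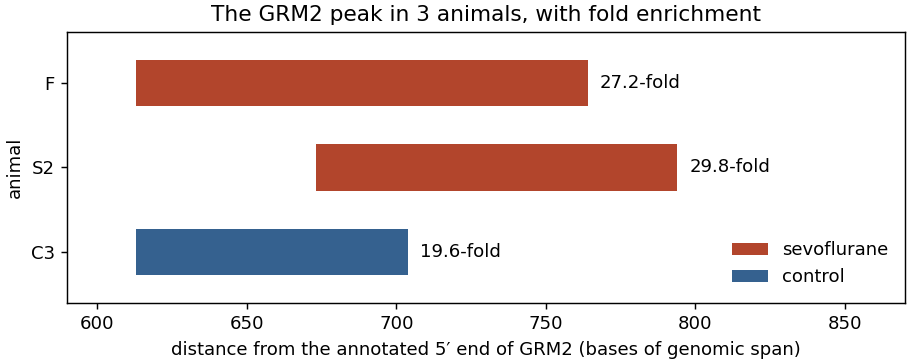
The GRM2 peak in the sevoflurane animals F and S2 and the control animal C3, drawn as its extent in bases from the annotated 5′ end of the gene (x axis), with the authors' fold enrichment beside it. F and C3 begin at 613 bases and S2 at 673.

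GRM2 peaks were also set apart by their enrichment. It was 27.2-fold in F and 29.8-fold in S2, against 19.6-fold in C3, at percentiles of 87.5, 91.0 and 85.1 within the lists. In the other 3 genes no peak exceeded 4.53-fold or a percentile of 41.9. In F the GRM2 peak had 27.2-fold and the GRIK5 peak 2.93-fold enrichment within the same list, and in C3 the GRM2 peak had 19.6-fold and the GRIA1 peaks 2.38-fold and 4.53-fold. The p-values of GRM2 were ordinary for their lists: 3.5e-06 in F (rank 695 of 1178), 7.2e-07 in S2 (rank 772.5 of 1673) and 4.3e-05 in C3 (rank 923.5 of 1210). Among other peaks of the same list with at least the same enrichment, 88.8% in F, 93.0% in S2 and 96.3% in C3 had a smaller p-value.

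**Figure D3:**
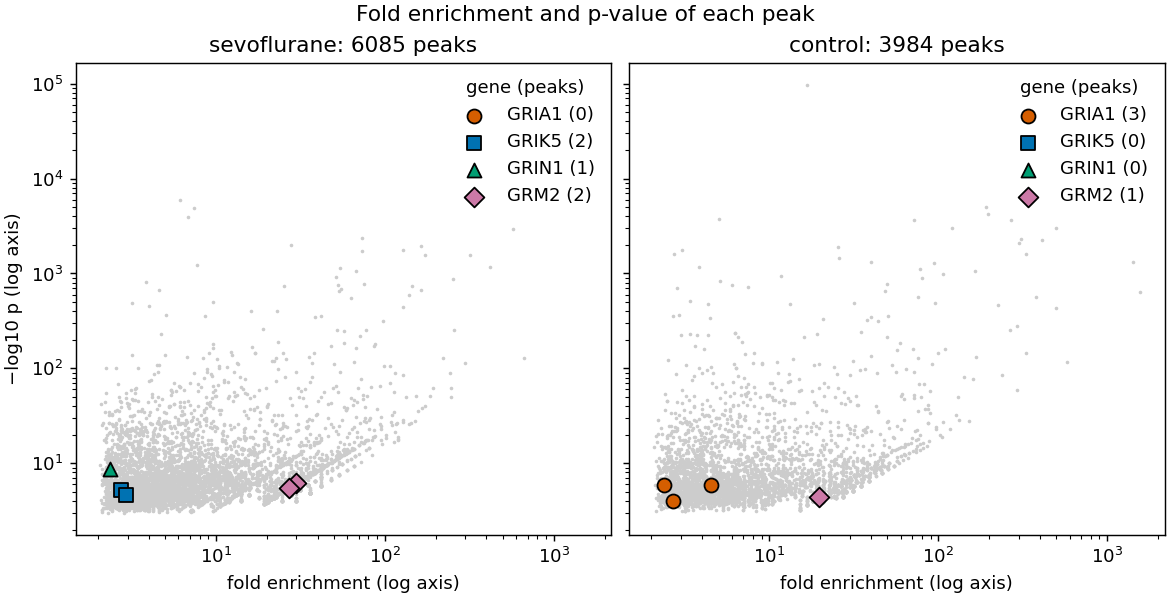
Fold enrichment (x axis, log scale) and −log10 p (y axis, log scale) of each peak in the sevoflurane lists (left, 6085 peaks) and the control lists (right, 3984 peaks), both the authors' values. Grey points are all peaks and coloured points the 9 receptor peaks. GRM2 peaks lie between 19.6-fold and 29.8-fold, low in −log10 p for that enrichment, and the other receptor peaks between 2.37-fold and 4.53-fold.

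Each position is a share of the span, introns included, of the transcript to which that peak was annotated. On this measure the 9 peaks fell near the ends of the span, with 1 exception. They formed 6 regions, and the single regions of GRIK5 and GRM2 are counted once per animal here. Midpoints of 5 peaks, in GRIA1, GRIK5 and GRIN1, lay beyond 90% of the span. The GRIA1 peaks were measured on different transcripts. The 3′ UTR peak of C3 was placed on a span of 219111 bases, and the other GRIA1 peaks on a span of 370832 bases. Their percentages are therefore not on a common scale, and the count beyond 90% depends on the transcript used. One of these, the GRIA1 peak of C2, had its edge 16331 bases from the 3′ end. The 3 GRM2 peaks lay in the first 10%, and the inner GRIA1 peak of C3 lay at 56.2%. Over 9215 peaks whose called and annotated genes agreed, 26.8% lay beyond 90% and 17.1% in the first 10% of the span. The peaks covered 91 to 180 exonic bases with a median of 121, against a median of 150 over all peaks, and 3 of the 9 crossed an exon junction, against 35.9% of all peaks.

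**Figure D4:**
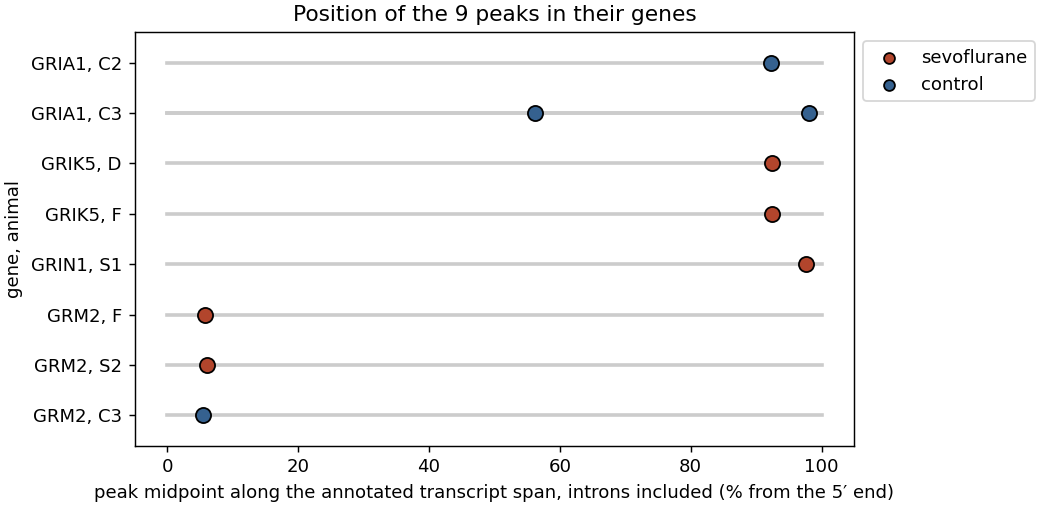
Midpoint of each receptor peak along the annotated transcript span, introns included, as a percentage from the 5′ end, by gene and animal. GRM2 midpoints sit at 5.47 to 6.09% in both groups, and GRIK5 midpoints at 92.4% in both sevoflurane animals.

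Genes with the same presence over the 11 animals were numerous, as sparse patterns allow. The pattern of GRIN1, a peak in S1 alone, was shared by 200 other genes, that of GRIK5 by 25, that of GRIA1 by 13 and that of GRM2 by 10. Ordered by how close their median percentile of enrichment was, the nearest to GRIA1 were LDHA, the lactate dehydrogenase A subunit, KCNJ10, the glial potassium channel Kir4.1, and FBXL17, an F-box protein. For GRIK5 they were OS9, a lectin of endoplasmic reticulum quality control, EZR, the membrane linker ezrin, and SLX9. For GRIN1 they were ANXA5, a phospholipid-binding annexin, and the transcription factors CAMTA2 and EGR1. For GRM2 they were NES, the intermediate filament nestin, CCDC91 and DIDO1. Each had a Jaccard index of 1 with its receptor gene over the 11 animals.

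Of 26 receptor subunit genes, the 4 chosen ones included, 8 had a peak in any animal, and 18 had none in the tables used here. The 4 further genes with a peak, GRIN2C, GRIN3A, GRIA2 and GRIK3, held 5 peaks, against 9 in the 4 chosen genes, which were chosen with the presence of their peaks known. Over all 26 genes a sevoflurane animal had a peak in 1.60 ± 1.14 receptor genes (SD, n = 5, range 0 to 3) and a control animal in 0.833 ± 1.17 (SD, n = 6, range 0 to 3). Per 1000 genes with a peak in the same animal, this was 1.70 ± 1.51 after sevoflurane and 1.07 ± 1.24 in controls (SD). Of the 8 genes, the 4 chosen ones included, 6 had a larger share of sevoflurane and 2 a larger share of control animals. Over the whole table the sevoflurane share was larger for 83.2% of the 1486 genes present in 2 to 9 animals. Of genes with a peak in 1 animal, 63.2% had it in a sevoflurane animal. All 8 receptor genes were present in at most 3 animals, where Fisher's exact test cannot reach an unadjusted p under 0.05, so the test says nothing about this family.

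GRIN2C, an NMDA receptor subunit, had a peak in S1 alone, with 35.9-fold enrichment at a percentile of 89.8. S1 thus carried both GRIN1 and GRIN2C. GRIN3A, an NMDA subunit that lowers calcium entry, had a peak in S2 alone, with 7.45-fold enrichment (percentile 61.4), starting 509 bases from the annotated 5′ end. GRIA2, the AMPA subunit whose edited form blocks calcium entry, had a peak in the control C3 alone, with 2.55-fold enrichment (percentile 8.93) and a p-value of 1e-11. Both AMPA subunit genes with a peak, GRIA1 and GRIA2, thus had them in controls, and C3 held both. Over the whole table, 36.8% of genes with a peak in 1 animal had it in a control. Of genes present in 2 animals, 11.2% were in controls alone. C2 and C3 had the longest control lists, with 703 and 1210 peaks, and GRIA1 was chosen with its presence known. GRIK3, a kainate subunit, had a peak in the sevoflurane animal S1 at 5.32-fold and in the control B at 5.89-fold, at positions that did not overlap.

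Among genes of proteins that work with these receptors, the counts differed by list. Of 20 auxiliary subunit genes, 1 had a peak, SHISA7, a modulator of AMPA and GABA type A receptors, in S2. Of 26 trafficking and anchoring genes 14 had a peak, 9 with a larger share of sevoflurane and 4 of control animals. The number with a peak per animal was 5.60 ± 1.95 (SD, n = 5) after sevoflurane and 3.5 ± 1.38 (SD, n = 6) in controls, not scaled to list length. Mean list length was 1217 peaks after sevoflurane and 664 in controls. Over the whole table, 83.2% of the 1486 genes present in 2 to 9 animals had a larger sevoflurane share. Of genes with a peak in 1 animal, 63.2% had it in a sevoflurane animal. One of the 6 trafficking and anchoring genes tested, DLG3, was called by Fisher's exact test at an unadjusted p under 0.05. Over all 1486 genes tested, 27 (1.82%) were called in the same direction, and 0 after Benjamini-Hochberg adjustment. All lists were chosen with earlier results of these data known, so the DLG3 call is a description and no independent test. DLG3, an NMDA receptor scaffold gene, had a peak in 5 of 5 sevoflurane and 0 of 6 control animals. DLGAP3, a scaffold linker, was in 3 and 0, NPTX1, a pentraxin that clusters AMPA receptors, in 2 and 0, and DLGAP1 in 3 and 5. The median difference over the tested genes of this list was 21.7 percentage points.

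Of 26 kinase, phosphatase and G protein genes, 14 had a peak, 10 with a larger share of sevoflurane and 3 of control animals. The same shares over the whole table, 83.2% and 63.2%, stand beside this count. None of the 8 tested was called, and their median difference was 25 percentage points. GNA11, a G protein alpha subunit, was in 2 sevoflurane and 0 control animals, and GNAO1, the alpha subunit of Go through which mGlu2 can act, in 5 and 4. PPP1R9B, the spine protein spinophilin, was in 4 and 3, and ITPR1, a calcium release channel, in 3 and 2. Of 20 genes of glutamate supply and clearance, 8 had a peak, 7 with a larger share of sevoflurane and 1 of control animals, beside those same shares. Neither of the 2 tested was called, with a median of 16.7 percentage points. PHGDH, of serine synthesis, was in 2 sevoflurane and 1 control animal, and GLUD1, GOT1 and the glutamate transporter gene SLC1A1 each in 1 and 0.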

How the data were processed

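m6A immunoprecipitation libraries from 11 animals have 1 deposited peak table each; the input libraries were not analysed here. Per the submitters' processing notes, the build is rheMac8 and the tools listed are HISAT2 2.1.0, StringTie, cutadapt and Trim Galore 0.5.0; the peak caller is not given in the sources used here. Per the file headers, each deposited row holds a peak's position and blocks, a p-value, log10 scores for p and false discovery rate, and a fold enrichment (a ratio), all the authors' values. Every deposited p-value was at most 0.001. In all 6457 single-block peaks the block size equalled end minus start, so 1 was added to printed starts. No read counts are given: the depth is unknown, and the number of animals limits the precision.

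Presence of a gene in an animal means at least 1 peak called in that gene. Ensembl identifiers of 3235 of 3671 genes matched the supplied names and 250 more the peak tables. Python 3.11.15, pandas 2.3.3 and scipy 1.17.1 were used. Percentiles rank fold enrichment within a list (100 is highest), ranks order log10 p within a list (1 is smallest), with ties averaged, and positions are peak midpoints on the annotated transcript. Peaks of 1 strand whose exonic blocks shared 1 bp or more were joined into regions. Fisher's exact tests across all genes present in 2 to 9 animals were adjusted by Benjamini-Hochberg. A check on simulated data covered only the recovery, at an unadjusted p under 0.05, of genes set far apart between the groups. It did not cover the adjustment, false calls or sparse genes. Exact permutation covered list length and the replicate block.

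The 4 genes and all lists were chosen with earlier results of these data known. Named genes were the 4 genes, each other receptor subunit with a peak, up to 4 genes with a peak per further list by the largest absolute difference in share (symbol order settling ties), and 3 genes per receptor by the Jaccard index, ties by percentile and then symbol. Alternatives were stricter peaks, lists of equal length, the annotated gene, no filter, a replicate block, strata by sex and name style, 50% reciprocal overlap, and leaving out each animal.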

Additional observations from a re-analysis of the deposited data

Results flagged for a closer look

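In the control animal C3, 3 counts lay well above those of the other controls. Its list held 1210 peaks, against 452 to 703 in the other 5 controls. It had 3 peaks in the 4 receptor genes, against 0 or 1 in the others, and a peak in 3 glutamate receptor genes (GRIA1, GRIA2 and GRM2), against 0 or 1. In each case the gap to the next animal, as a share of the range over the 6 controls, was above Dixon's critical value, which chance passes in about 1 in 20 groups of normally distributed values. That rate does not hold for receptor counts as small as these. Both receptor counts include the presence values on which the genes were chosen, so they are a description and no test. The 3 counts come from the same list and are not independent. The part of list length in the receptor counts was not tested. No count of the sevoflurane animals was marked in this way.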

How the results depend on the processing

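At an unadjusted p under 0.05 by Fisher's exact test, 27 genes had peaks in more sevoflurane animals; this count was 10 with peaks of p at most 1e-05 and 4 with lists of equal length. Leaving out 1 animal gave 31 to 85 (85 when S1 was left out, 69 for S3, 59 for the control C3, 56 for F, 55 for D and 46 for S2), and 0 to 1 in the other direction. Group size alone moves which counts can reach that p. The log2 difference in list length was 0.80 in males (exact permutation p = 0.333), 1.04 in females (p = 0.0857), 1.11 in single-letter animals (p = 0.10) and 0.73 in numbered animals (p = 0.20), with fewer animals in each. The GRIK5 difference of 40.0 percentage points became 0 with lists of equal length, 100 in single-letter animals and 0 in numbered animals, and the GRIN1 difference of 20.0 became 50 in males. Under the other settings the 4 differences moved by less than the pooled SD of presence between animals. This SD was 38.5 points for GRIA1, 29.8 for GRIN1 and 47.5 for GRM2, wider than each gene's own difference. A fall to 0 therefore also counted as no move, so this rule does not show stability. GRIA1 was 0 in males and in single-letter animals and -66.7 in numbered animals. GRM2 was 0 in males and in numbered animals, 41.7 in females and 50 in single-letter animals. GRIN1 was 0 in females and in single-letter animals. Leaving out 1 animal gave -40.0 to -20 points for GRIA1, 25 to 50 for GRIK5, 0 to 25 for GRIN1 (0 without S1) and 8.33 to 40.0 for GRM2. With peaks of p at most 1e-05, GRIA1 was left in 0 sevoflurane animals and 1 control, GRIK5 in 1 and 0, GRIN1 in 1 and 0, and GRM2 in 2 and 0. With lists of equal length GRIA1, GRIK5 and GRM2 had no peak left. Using the annotated gene left the 4 differences as they were, and 50% reciprocal overlap left 6 regions. The replicate block sets C1 with S1, C2 with S2, C3 with S3 and the single-letter animals together. Its test was an exact permutation within these sets over 80 arrangements, in place of Fisher's exact test. It gave 19 genes at an unadjusted p under 0.05 with more sevoflurane animals. The differences, as means over the sets with equal weight, were -50 (GRIA1), 25 (GRIK5), 25 (GRIN1) and 12.5 (GRM2) points. The numbers are not shown to pair the animals. Over the 1486 genes, deviations from the group means correlated at 0.0628, 0.000159 and 0.0234 in the pairs with the same number. In pairs with different numbers the correlations ran from -0.0826 to 0.0594. No Fisher count was possible for males, single-letter or numbered animals, because the test cannot go below 0.05 with those numbers. With 9 peaks in all, 1 peak more or less changes each statement on a single gene.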
